A study of Mus musculus with 10 samples.

Results

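Glypicans and syndecans, the membrane-bound heparan sulfate proteoglycans, were followed in RNA sequencing libraries of nerve growth factor receptor-sorted cells from mouse pancreas and pancreatic tumour. The members were taken by gene symbol, Gpc1 to Gpc6 and Sdc1 to Sdc4, and all 10 were found among the 55401 genes of the table. The family was selected on the tumour-to-pancreas difference of Gpc3, one of the most raised genes, so that difference is a description here and has no test. The other 9 members came in by family name.

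A heparan sulfate proteoglycan is a core protein that carries long sulfated sugar chains. Glypicans are tied to the outer face of the membrane by a lipid anchor (glycosylphosphatidylinositol), while syndecans cross the membrane and have a short cytoplasmic tail. Their chains hold growth factors and morphogens such as FGFs, Wnts, hedgehogs and BMPs near their receptors or keep them away, and enzymes can cut the core proteins or the chains and so release both. In peripheral nerve, Schwann cells are known to carry glypican-1 and syndecans and to lay down a basement membrane rich in such proteoglycans.

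The 10 libraries were 5 of pancreas and 5 of tumour, 1 per sample, all from KPC mice, a pancreatic cancer model that is here switched on by tamoxifen, on a C57BL/6 background. Tumour mice had received tamoxifen (20 mg/kg, intraperitoneal, on 5 days from 6 weeks of age), pancreas mice had the same alleles without induction, and both were sampled at 4 months. The labels name neither the Cre driver nor the alleles, and do not say whether each library is 1 animal. Column codes read CTL for pancreas and COCUL for tumour, and what COCUL stands for is not given. Pancreas was digested with hyaluronidase and collagenase and tumour with a dissociation kit, so digestion and group cannot be told apart.

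Defining Schwann cell markers were near the floor although the labels call the cells Schwann cells. Foxd3 was at 0 counts in every library, Ngfr, the gene of the sort antigen, was at 0.133 ± 0.0931 CPM (TMM-scaled counts per library size) in pancreas and 0.0669 ± 0.102 in tumour, and Sox10 was at 0.0300 ± 0.0501 and 0. The sum over 14 Schwann lineage markers was 111 to 120 CPM in pancreas and 223 to 247 in tumour, most of it Ncam1, and 3 of its 8 tested genes were higher and 1 lower. Epithelial and neoplastic markers summed to 1060 to 1234 and 1042 to 1241 CPM, mostly Msln and Lcn2, with Epcam, Cdh1, Krt8 and Cldn4 at or near 0 (1 higher and 5 lower of 6 tested). Msln fell from 630 ± 48.9 to 459 ± 33.9 CPM and Lcn2 rose from 461 ± 29.0 to 680 ± 50.9. Fibroblast markers summed to 790 to 880 and 243 to 281 CPM (1 higher, 8 lower of 9). Thy1 was the largest of them in pancreas and fell from 391 ± 25.2 to 3.99 ± 0.723 CPM. Pdgfrb fell less, from 252 ± 19.7 to 164 ± 9.83 CPM, and Pdgfra rose from 12.4 ± 1.80 to 45.1 ± 3.35. Lum and Dcn were at 0 in tumour and low in pancreas too (0.0137 ± 0.0307 and 0.736 ± 0.294 CPM). Endothelial markers summed to 340 to 390 and 198 to 209 CPM (2 lower of 5), with Cldn5 and Emcn at or near 0. Most of that sum was Cdh5, which fell from 333 ± 15.4 to 191 ± 4.45 CPM. Pericyte and smooth muscle markers summed to 515 to 630 and 384 to 399 CPM (4 higher, 3 lower of 7), with Kcnj8 at 0. These sums hide large opposite differences. Acta2 fell from 266 ± 45.1 to 1.74 ± 0.153 CPM and Tagln from 41.8 ± 8.12 to 0.541 ± 0.228. Cspg4 rose from 171 ± 19.8 to 248 ± 4.58 CPM and Notch3 from 75.3 ± 23.9 to 135 ± 5.13. Macrophage markers summed to 19.7 to 42.4 and 25.1 to 27.3 CPM (1 higher, 1 lower of 3), with Adgre1 at 0 and Ptprc near it. Cd14 fell from 20.2 ± 5.45 to 9.77 ± 1.25 CPM and Cd68 rose from 3.26 ± 1.74 to 9.30 ± 1.89. Acinar markers summed to 0.427 to 1.38 and 1.53 to 2.73 CPM (1 higher of 1), with Cpa1 and Prss2 at 0. These counts of markers stand beside 32.4% of all tested genes called higher and 33.4% called lower (edgeR test given below). The part of these marker differences in the results below was not tested. In such bulk samples fewer cells of a type and less RNA per cell cannot be told apart.

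Libraries held 58242278 to 89816499 estimated counts. Pancreas replicates 3 and 4 stood apart from pancreas replicates 1, 2 and 5 on the second principal component (6.96% of the variance, after 64.7% on the first). Levels below are CPM, with mean ± SD over 5 libraries, and differences are log2 fold changes of tumour minus pancreas ± SE, unless another scale is named. The SE is the absolute log2 fold change over the square root of the F statistic of the edgeR fit. For Gpc3 it is part of the description and not a test.

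Among the glypicans other than Gpc3, 2 rose, 1 was slightly lower, 1 did not pass and 1 was near zero throughout. Across the 9 members other than Gpc3, 8 were abundant enough to be tested, 3 rose and 3 fell in tumour (edgeR quasi-likelihood test, Benjamini-Hochberg adjusted p below 0.05 over 17548 genes). Over all tested genes the same call was made for 65.8%, with 32.4% higher and 33.4% lower. At 2-fold or more, 1 of these 8 was higher (Gpc2) and 0 were lower, beside 12.7% and 10.3% of all tested genes. The groups did not overlap for 4 of the 8, beside 54.6% of all tested genes.

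The start regions of Gpc3 and Gpc4 are printed because they are neighbours of which only Gpc3 stood far apart between groups, and those of Sdc1 and Sdc4 because these are the most abundant members and moved in opposite directions. Each line gives the 250 bases before the transcript start from RefSeq (GRCm38.p6, the assembly that mm10 names), 5′ to 3′ on the strand of the gene. The gene spans printed below come from GENCODE, whose starts differ from these. By those spans the Gpc4 and Sdc4 windows lie inside the gene and the Sdc1 window partly inside it. The Gpc3 window lies outside its gene. Capitals mark matches on either strand to GGGCGG, the GC box bound by Sp1-type factors, or to CCAAT, the CCAAT box.
Gpc3 promoter, chrX:52613975-52614224, minus strand: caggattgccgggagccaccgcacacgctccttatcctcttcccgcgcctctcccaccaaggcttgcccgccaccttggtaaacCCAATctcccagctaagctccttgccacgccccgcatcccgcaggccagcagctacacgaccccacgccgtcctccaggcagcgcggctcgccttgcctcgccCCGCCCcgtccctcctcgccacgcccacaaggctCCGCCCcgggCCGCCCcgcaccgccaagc
Gpc4 promoter, chrX:52164924-52165173, minus strand: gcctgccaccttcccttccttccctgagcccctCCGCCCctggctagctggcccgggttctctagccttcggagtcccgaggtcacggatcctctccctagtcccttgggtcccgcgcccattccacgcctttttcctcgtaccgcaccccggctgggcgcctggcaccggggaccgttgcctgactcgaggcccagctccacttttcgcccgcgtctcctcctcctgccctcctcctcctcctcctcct
Sdc1 promoter, chr12:8771146-8771395, plus strand: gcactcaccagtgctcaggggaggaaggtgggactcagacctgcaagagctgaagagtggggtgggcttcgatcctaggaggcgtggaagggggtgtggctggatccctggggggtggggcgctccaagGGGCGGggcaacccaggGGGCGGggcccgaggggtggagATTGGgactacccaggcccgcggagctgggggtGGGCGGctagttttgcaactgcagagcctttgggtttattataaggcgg
Sdc4 promoter, chr2:164443189-164443438, minus strand: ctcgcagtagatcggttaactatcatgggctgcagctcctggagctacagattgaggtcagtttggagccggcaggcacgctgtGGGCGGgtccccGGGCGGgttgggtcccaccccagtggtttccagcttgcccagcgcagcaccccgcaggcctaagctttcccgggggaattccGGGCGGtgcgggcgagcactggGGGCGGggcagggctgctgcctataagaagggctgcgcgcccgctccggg

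All of these start regions were rich in G and C and had no exact match to TATAAA, the only form of the TATA box searched. The Sdc1 and Sdc4 windows hold the near match TATAAG, which was not counted. The Gpc3 window held 71.6% G and C, 25 CpG dinucleotides, 3 GC boxes and 1 CCAAT box, and the Gpc4 window 68.4% G and C, 18 CpG dinucleotides and 1 GC box. The Sdc1 window held 66.0% G and C, 10 CpG dinucleotides, 3 GC boxes and 1 CCAAT box, and the Sdc4 window 68.0%, 19 CpG dinucleotides and 4 GC boxes. Among 32851 start regions of the same length the median was 52.4% G and C and 6 CpG dinucleotides, 32.7% held a GC box, 33.8% a CCAAT box and 12.4% a TATA box. The AP-1 site TGACTCA (4.46% of all) and the E-boxes CACGTG (6.02%) and CACCTG (17.2%) were searched on both strands too and are not in these 4 windows, and no matches overlapped. A start region was in the RefSeq table for 7 of the 10 members, not for Gpc1, Gpc6 and Sdc2. Matches describe letters and not bound sites.

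Gpc3 (ENSMUSG00000055653.13, X chromosome, minus strand, 52272426 to 52613950 of mm10) encodes glypican-3, a glypican of fetal tissues that binds hedgehog and Wnt ligands and whose loss causes overgrowth in mice and humans. It was at 0.292, 0.524, 0.504, 0.869 and 0.141 CPM in pancreas replicates 1 to 5 and at 23.8, 25.0, 21.1, 25.7 and 21.5 CPM in tumour replicates 1 to 5. Every tumour library was far above every pancreas library, and in pancreas the gene rested on only 11 to 59 estimated counts, with replicate 4 highest. In tumour it had 1303 to 2084. Group means were 0.466 ± 0.275 and 23.4 ± 2.06 CPM, a fitted log2 fold change of 5.65 ± 0.31 (50.1-fold), rank 31 from the highest of 17548 tested genes. The size of the fold rests on the low pancreas counts, and it was 5.98 on the log2 scale without pancreas replicate 4 and 6.19 without pancreas replicates 3 and 4.

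The nearest gene to Gpc3 among protein-coding genes is Gpc4, on the same strand and 107174 bases away, and its level was high in both groups. Glypican-4 is known in mouse from astrocytes, which release it to promote synapses. Gpc4 (ENSMUSG00000031119.4, X chromosome, minus strand, 52053021 to 52165252) was at 56.3, 50.7, 77.6, 79.7 and 44.6 CPM in pancreas replicates 1 to 5 and at 46.7, 42.0, 51.7, 49.5 and 47.5 CPM in tumour replicates 1 to 5. Pancreas replicates 3 and 4 were the high ones, and of the other 3 pancreas libraries 2 lay within the tumour range. Its log2 fold change of -0.38 ± 0.15 passed narrowly (adjusted p = 0.043, 61.8 ± 16.0 and 47.5 ± 3.61 CPM). The call ended without pancreas replicates 3 and 4 (-0.10, adjusted p = 0.322), without either of them alone, without any 1 tumour library, and with scaling by library size only (adjusted p = 0.129). On the other side of Gpc3, 177250 bases away, Ccdc160 did not pass (0.0526 ± 0.0749 and 0.200 ± 0.0636 CPM, adjusted p = 0.0869). The gene beyond Gpc4, 1700080O16Rik, was at 0 counts in every library.

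Gpc1 rose in tumour. It encodes glypican-1 (ENSMUSG00000034220.7, chromosome 1, plus strand, 92831645 to 92860779), known from peripheral nerve and from pancreatic cancer, where it aids FGF signalling. It was at 43.8, 47.7, 50.7, 54.7 and 41.7 CPM in pancreas replicates 1 to 5 and at 85.2, 86.4, 89.5, 88.6 and 92.5 CPM in tumour replicates 1 to 5. The groups were well apart, with a narrow spread in tumour. Gpc1 went from 47.7 ± 5.23 to 88.5 ± 2.85 CPM, 1.85-fold (log2 fold change 0.89 ± 0.07, adjusted p = 7.8e-08). The opposite-strand gene Ankmy1 shares 977 exonic bases with it but had at most 35 estimated counts in any library, against 2552 to 7464 for Gpc1.

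Gpc2, cerebroglycan, which in rodents marks developing neurons, rose from a low level. Gpc2 (ENSMUSG00000029510.15, chromosome 5, minus strand, 138273655 to 138280005) was at 0.258, 1.71, 0.687, 1.49 and 0.565 CPM in pancreas replicates 1 to 5 and at 2.63, 2.50, 4.45, 2.77 and 3.61 CPM in tumour replicates 1 to 5. All tumour libraries were above all pancreas libraries, and pancreas replicate 2 came closest. Its log2 fold change was 1.76 ± 0.41 (3.38-fold, adjusted p = 0.002). The gene model Gm43720 on the same strand shares 2376 exonic bases with Gpc2, so the counting could split reads of the locus between them. Gm43720 had 64, 0, 77, 14 and 99 estimated counts in pancreas replicates 1 to 5, where Gpc2 had 15, 124, 60, 101 and 44. The value of Gpc2 alone is therefore uncertain. The sum of both was 1.63 ± 0.181 CPM in pancreas and 4.71 ± 1.24 in tumour, a ratio of 2.88 with no overlap. Stag3, a meiotic cohesin gene 235 bases away on the other strand, was looked at after its values were seen and rose from 0.935 ± 0.346 to 6.44 ± 0.356 CPM (adjusted p = 4.3e-07).

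Gpc6 and Gpc5 lie side by side on chromosome 14, 400136 bases apart, and of the pair Gpc6 was the abundant one. Gpc6 (ENSMUSG00000058571.11, chromosome 14, plus strand, 116925315 to 117976544) encodes glypican-6, another astrocyte-released synapse factor in mouse. It was at 39.1, 21.3, 48.8, 40.9 and 22.5 CPM in pancreas replicates 1 to 5 and at 37.9, 48.0, 43.7, 42.2 and 40.6 CPM in tumour replicates 1 to 5. Pancreas replicates 2 and 5 were low, and pancreas replicates 1, 3 and 4 fell within the tumour range or just above it. With all libraries the difference did not pass (34.5 ± 12.1 and 42.5 ± 3.77 CPM, adjusted p = 0.241, log2 fold change 0.30 ± 0.21), and without pancreas replicates 3 and 4 it did (0.62, adjusted p = 0.0157). Gpc5 (ENSMUSG00000022112.14, chromosome 14, plus strand, 115092215 to 116525179), whose product aids hedgehog signalling in human rhabdomyosarcoma, had 3, 6, 0, 0 and 15 estimated counts in pancreas replicates 1 to 5 and 0 in every tumour library, too few to be tested.

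**Figure D1:**
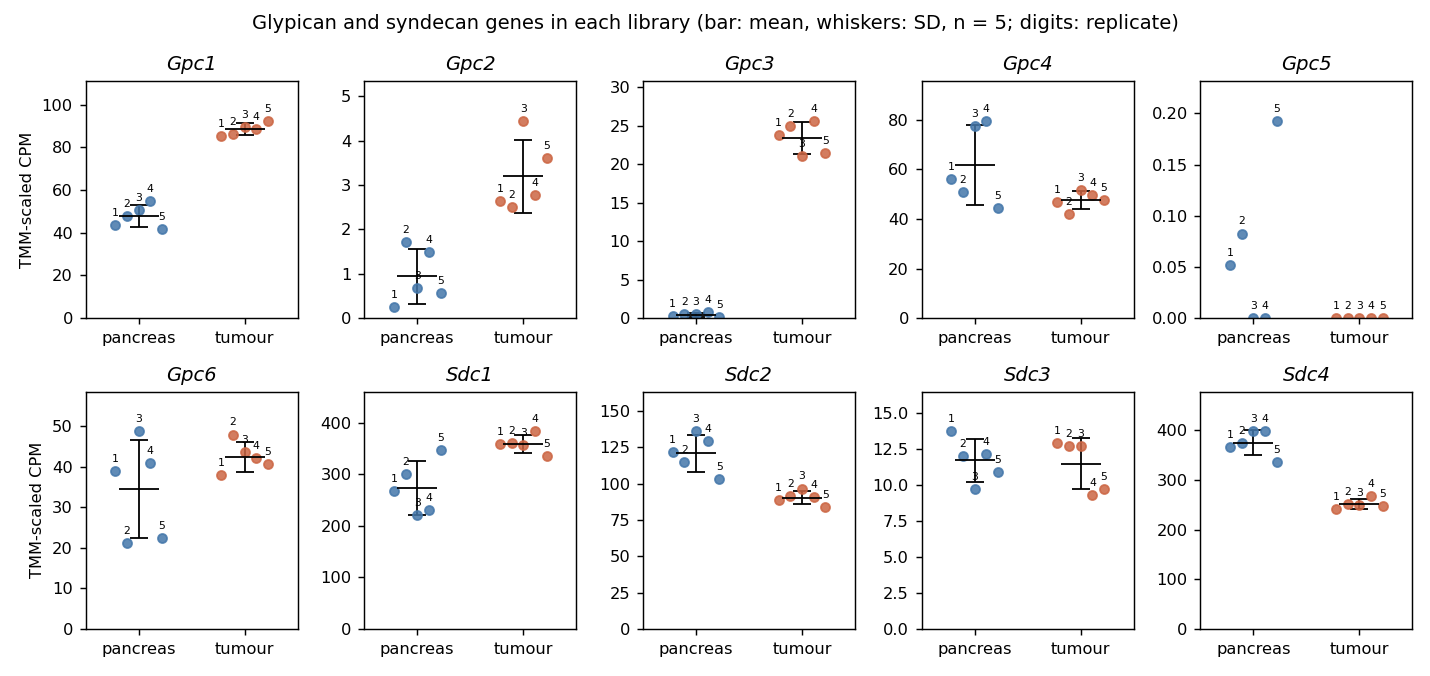
TMM-scaled CPM of each glypican and syndecan gene (y axis, from 0, own scale per gene) in the 5 pancreas and 5 tumour libraries. Points are libraries, and the bars show mean and SD (none for Gpc5, which is near 0). Gpc3 is at most 0.869 CPM in pancreas and at least 21.1 CPM in tumour, while Gpc4 and Gpc6 overlap between groups.

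Syndecans were the abundant part of the family, with 1 gene higher, 2 lower and 1 without a call among 4. Sdc1, the syndecan typical of epithelium and plasma cells, rose. Sdc2, known from mesenchymal cells, and Sdc4, the broadly expressed syndecan of focal adhesions, fell. Sdc3, the syndecan of neural tissue, was low in both groups.

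Sdc1 (ENSMUSG00000020592.14, chromosome 12, plus strand, 8771323 to 8793715) was at 268, 300, 221, 231 and 348 CPM in pancreas replicates 1 to 5 and at 359, 361, 357, 384 and 335 CPM in tumour replicates 1 to 5. Pancreas replicate 5 lay within the tumour range, and pancreas replicates 3 and 4 were lowest. The log2 fold change was 0.39 ± 0.11 (274 ± 52.1 and 359 ± 17.3 CPM, adjusted p = 0.00594), and without pancreas replicates 3 and 4 it was 0.23 (adjusted p = 0.0159).

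Sdc4 (ENSMUSG00000017009.3, chromosome 2, minus strand, 164424247 to 164443887) was at 367, 374, 398, 398 and 337 CPM in pancreas replicates 1 to 5 and at 241, 252, 250, 267 and 247 CPM in tumour replicates 1 to 5. No tumour library reached the lowest pancreas library. Its log2 fold change of -0.58 ± 0.05 (375 ± 25.1 and 252 ± 9.45 CPM, adjusted p = 3.1e-07) had the smallest SE of the family.

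Sdc2 (ENSMUSG00000022261.6, chromosome 15, plus strand, 32920723 to 33034935) was at 122, 115, 136, 129 and 103 CPM in pancreas replicates 1 to 5 and at 88.7, 91.7, 96.6, 90.9 and 84.2 CPM in tumour replicates 1 to 5. Its groups did not overlap either, and its log2 fold change was -0.42 ± 0.07 (121 ± 12.7 and 90.4 ± 4.50 CPM, adjusted p = 9.4e-05).

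Sdc3 (ENSMUSG00000025743.14, chromosome 4, plus strand, 130792537 to 130826319) was at 13.7, 12, 9.70, 12.1 and 10.9 CPM in pancreas replicates 1 to 5 and at 12.9, 12.7, 12.7, 9.31 and 9.70 CPM in tumour replicates 1 to 5. The groups overlapped (11.7 ± 1.5 and 11.5 ± 1.79 CPM, adjusted p = 0.858), and the log2 fold change of -0.03 ± 0.12 turned to 0.08 with scaling by library size only. The SE leaves room for a small difference in either direction.

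**Figure D2:**
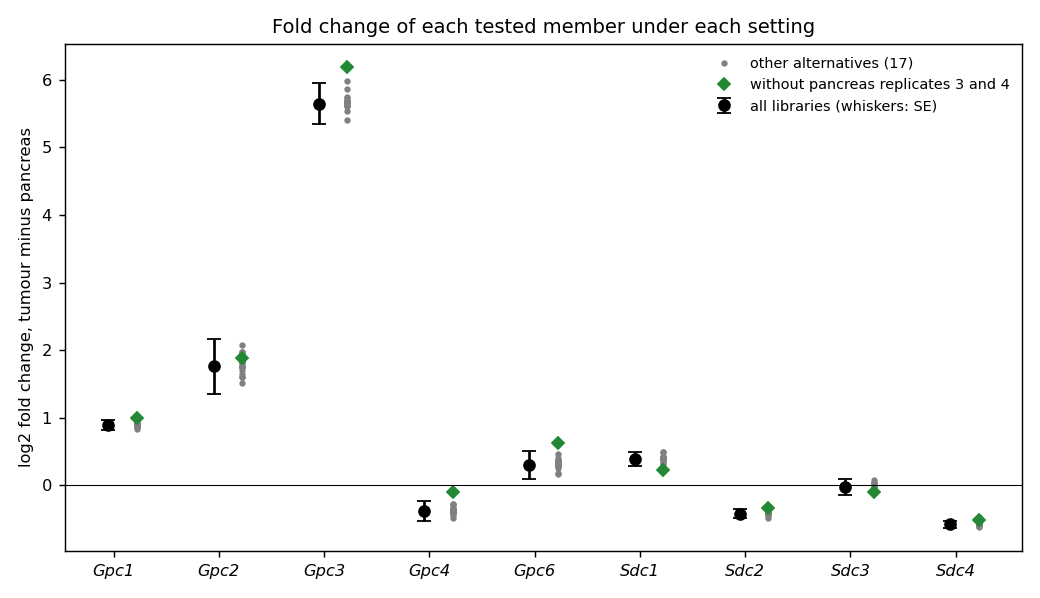
Log2 fold change of tumour minus pancreas (y axis) for the 9 members with a fit. Black points are the fit with all libraries with its SE, green diamonds the fit without pancreas replicates 3 and 4, grey points the other 17 alternatives. Gpc3 stands at 5.65, Gpc2 and Gpc1 are above 0 and Sdc4 and Sdc2 below 0 under each alternative shown, and Gpc4 comes close to 0 at -0.10 without both pancreas libraries.

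Under scaling by library size only, where the median over all genes shifted by 0.10, Gpc1, Gpc2, Sdc1, Sdc2 and Sdc4 kept their direction and their call.

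Per length (TPM, counts over the merged exon length, scaled to one total in each library), the mRNA of these proteoglycans was mostly syndecan in both groups. In pancreas the order of levels was Sdc4 (428 ± 37.9 TPM), Sdc1 (208 ± 34.3), Sdc2 (100 ± 12.9), Gpc4 (68.1 ± 19.1), Gpc1 (26.9 ± 3.41), Gpc6 (15.7 ± 5.86) and Sdc3 (5.67 ± 0.742), with Gpc2 (0.638 ± 0.420), Gpc3 (0.507 ± 0.303) and Gpc5 (0.0417 ± 0.0502) last. Of neighbours in that order, Sdc2 and Gpc4, and Gpc2 and Gpc3, had overlapping ranges. In tumour the order was Sdc4 (347 ± 13.5 TPM), Sdc1 (331 ± 15.7), Sdc2 (90.1 ± 3.96), Gpc4 (62.9 ± 4.59), Gpc1 (60.3 ± 2.08), Gpc3 (30.6 ± 2.76), Gpc6 (23.2 ± 2.04), Sdc3 (6.72 ± 1.02), Gpc2 (2.62 ± 0.667) and Gpc5 at 0. Here Sdc4 and Sdc1, and Gpc4 and Gpc1, had overlapping ranges. With the longest transcript as the length each of these pairs changed places (306 TPM for Sdc1 and 275 for Sdc4, 56.9 for Gpc1 and 48.1 for Gpc4). With that length Gpc3 and Gpc6 in tumour kept their order but overlapped (28.4 ± 2.55 and 27.5 ± 2.40 TPM). Gpc1 and Gpc6 in pancreas then overlapped too (21.8 to 29.9 and 11.3 to 27.2 TPM).

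Within the glypicans, Gpc4 made up 60.4% ± 2.02 of the summed TPM in pancreas and 35.0% ± 1.99 in tumour. Gpc1 held 24.7% ± 3.51 and 33.5% ± 0.994, and Gpc3 0.432% ± 0.206 and 17% ± 1.65. In tumour, Gpc4 and Gpc1 thus held similar shares and Gpc3 came after them. The glypican sum was 80.6 to 141 TPM in pancreas libraries and 174 to 185 in tumour libraries, and without Gpc3 it was 80.5 to 140 and 143 to 155. Pancreas replicates 3 and 4 had the highest pancreas sums.

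The syndecan sum was 718 to 760 TPM in pancreas and 745 to 820 in tumour, ranges that overlap, but its make-up differed. Sdc4 held 57.7% ± 3.88 of it in pancreas and 44.8% ± 0.868 in tumour, and Sdc1 28.1% ± 5.32 and 42.7% ± 0.688. Sdc2 held 13.5% ± 1.45 and 11.6% ± 0.497, and Sdc3 below 1% in each library. Syndecans were 87.0% ± 2.58 of the summed level of both families in pancreas and 81.2% ± 0.502 in tumour. These sums and shares are descriptions without a test.

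**Figure D3:**
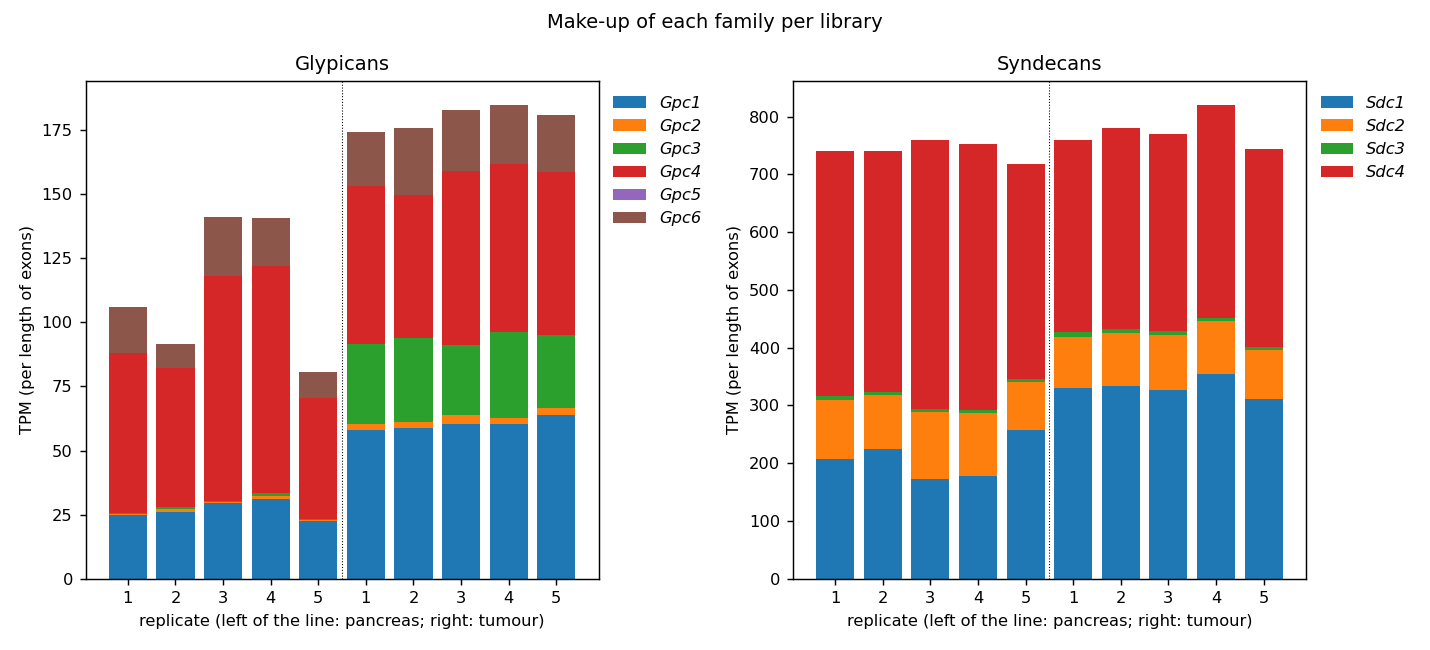
Stacked TPM (y axis, from 0) of the glypican genes (left) and syndecan genes (right) in each library, pancreas replicates 1 to 5 left of the dotted line and tumour replicates 1 to 5 right of it. Gpc3 is a clear band in the tumour libraries (17% ± 1.65 of the glypican sum), and the Sdc1 band is wider in tumour.

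Within groups, the coefficient of variation was taken for the 7 members other than Gpc3 with a mean of at least 5 CPM. It ran from 6.69% to 35.0% in pancreas and from 3.22% to 15.6% in tumour, against medians of 9.20% and 5.39% over 10966 genes. It was higher in pancreas for 6 of them, and for Sdc3 it was higher in tumour (12.8% and 15.6%). Both pancreas replicates 3 and 4 lay above the other 3 pancreas libraries for Gpc1, Gpc4, Gpc6, Sdc2 and Sdc4, and both lay below for Sdc1, while Gpc2, Gpc3 and Sdc3 showed neither. Of all tested genes 20.9% had both above and 19.6% both below. This split was described after these libraries had been seen to stand apart.

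The genes with the profile closest to that of Gpc3 over the 10 libraries were Gsta3 (root mean square difference 0.204 on the centred log2(CPM + 1) scale), Sel1l3 (0.254), Dpyd (0.256), Map7d2 (0.263) and Fat4 (0.273), among 10400 genes searched. They were at 0.259 to 0.495 CPM on average in pancreas and 16.7 to 25.2 in tumour, so the likeness includes the group difference itself. For Sdc1 they were Atp6v0a1 (0.0333), Qsox1 (0.0646) and Abr (0.067).

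Around the core proteins, 169 genes in 10 lists were looked at, from chain synthesis to ligands. Of 133 tested, 45 were higher and 58 lower in tumour, beside 32.4% and 33.4% of all tested genes. The median log2 fold change of all tested genes was 0.00, and list medians below are on that scale.

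Of the 28 heparan sulfate synthesis genes 18 were tested, 6 rose and 9 fell (median -0.25). Among the genes of the linker to the core protein, the glucuronyltransferase gene B3gat3 fell by 0.70 on the log2 scale and the galactosyltransferase gene B3galt6 from 4.42 ± 0.431 to 2.35 ± 0.838 CPM, while Fam20b, which encodes the linker xylose kinase, rose from 64.7 ± 6.35 to 85.3 ± 2.85. Ext1, a subunit gene of the heparan sulfate polymerase, fell from 48.3 ± 6.35 to 29.2 ± 1.12 CPM (-0.72 ± 0.08 on the log2 scale, adjusted p = 2.8e-06). Extl3, which acts in chain start, fell from 148 ± 2.11 to 91.0 ± 2.63 CPM. Ext2, the other polymerase subunit gene, did not pass (233 ± 10.7 and 226 ± 6.57 CPM, adjusted p = 0.374), and the related Extl1 rose from 0.955 ± 0.223 to 8.62 ± 0.709 CPM.

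Of the modifying genes, Ndst1, the N-deacetylase and N-sulfotransferase gene, rose from 154 ± 7.59 to 191 ± 10.5 CPM and Glce, the epimerase gene, from 40.9 ± 4.24 to 63.0 ± 3.62. The sulfotransferase genes Hs2st1 (from 90.0 ± 5.66 to 106 ± 1.42 CPM) and Hs6st1 (from 34.9 ± 2.33 to 43.4 ± 1.25) rose and Ndst2 fell (from 55.5 ± 3.29 to 36.1 ± 1.25), these 3 being named after their values were seen. Of the 9 sugar nucleotide and sulfate supply genes 3 rose and 4 fell (median -0.20). Ugdh, whose enzyme makes UDP-glucuronic acid, fell from 137 ± 7.51 to 99.0 ± 4.26 CPM, Slc35b2, the Golgi importer of activated sulfate, from 63.2 ± 2.72 to 41.3 ± 2.33, and the sulfate-activating enzyme genes Papss1 and Papss2 fell by 0.34 and 0.61 on the log2 scale. The sugar nucleotide genes Ugp2 (0.56 ± 0.05) and Uxs1 (0.42 ± 0.06) rose. The sulfate transporter gene Slc26a2 was called higher with all libraries (0.24 ± 0.09), and the call ended without pancreas replicate 3 or 4, without both (adjusted p = 0.143), and without tumour replicate 1 or 4.

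Chain editing and breakdown genes had 6 higher and 3 lower of 11 tested (median 0.16). The extracellular sulfatases that trim 6-O-sulfates differed. Sulf1 fell from 19.3 ± 2.40 to 7.64 ± 1.15 CPM (-1.34 ± 0.12 on the log2 scale, adjusted p = 3.1e-07), while the more abundant Sulf2 was called higher by a small margin (539 ± 48.2 and 602 ± 22.6 CPM, adjusted p = 0.0289), a call lost in 6 fits, those lacking pancreas replicate 1, 2 or 5 and those lacking tumour replicate 1, 3 or 4 (highest adjusted p = 0.0702). Hpse, the heparanase gene, rose from 12.9 ± 2.59 to 19.3 ± 1.17 CPM. The lysosomal breakdown genes Naglu (from 95.5 ± 16.8 to 244 ± 7.75 CPM) and Idua (from 30.2 ± 2.88 to 54.5 ± 3.13) rose, while Gusb (from 58.8 ± 12.4 to 38.8 ± 3.17) and Ids (from 75.9 ± 8.49 to 59.8 ± 3.52) fell.

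Chondroitin sulfate, which shares the linker with heparan sulfate and is also found on some syndecans, had 6 synthesis genes higher and 6 lower of 13 tested (median -0.26). Csgalnact1, which acts in chain start, fell from 9.88 ± 3.24 to 0.749 ± 0.415 CPM (-3.71 ± 0.39 on the log2 scale, adjusted p = 4.2e-06), and the polymerase genes Chpf (from 172 ± 28.8 to 92.2 ± 4.74) and Chpf2 (from 172 ± 13.8 to 101 ± 5.77) fell too. The 4-O-sulfotransferase genes parted, with Chst11 rising from 10.5 ± 2.82 to 42.3 ± 3.91 CPM and Chst12 falling from 57.2 ± 6.70 to 25.1 ± 1.37. The genes Ust (1.26 ± 0.09), Dsel (0.58 ± 0.08) and Csgalnact2 (0.49 ± 0.07) rose, as log2 fold changes.

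Core protein processing and shedding genes had 3 higher and 5 lower of 10 tested (median -0.13). Furin, a convertase of the kind that cleaves glypican-3, fell from 185 ± 7.78 to 95.6 ± 2.45 CPM (-0.95 ± 0.04 on the log2 scale, adjusted p = 5.2e-10) and the related Pcsk7 from 45.3 ± 2.36 to 23.2 ± 1.88, while Pcsk6 rose from 1.77 ± 0.669 to 3.47 ± 0.471. The sheddase genes Adam17 (from 84.3 ± 4.32 to 126 ± 4.99 CPM) and Adam10 (from 218 ± 26.9 to 285 ± 16.8) rose. Notum, whose enzyme inactivates Wnts and can release glypicans, did not pass (30.9 ± 7.77 and 35.0 ± 3.90 CPM, adjusted p = 0.32). Gpld1, a phospholipase gene for lipid anchors, was called lower (-0.47 ± 0.16 on the log2 scale), and not with library size scaling (adjusted p = 0.059) or without pancreas or tumour replicate 5. The metalloproteinase inhibitor gene Timp3 was called lower (-0.51 ± 0.16), and not without pancreas replicates 3 and 4 (adjusted p = 0.113) or without the low-count filter (adjusted p = 0.0581).

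Other proteoglycans of surface and matrix had 4 higher and 3 lower of 9 tested (median 0.03). Hspg2, perlecan of the basement membrane, rose from 570 ± 82.6 to 820 ± 34.6 CPM (0.53 ± 0.09 on the log2 scale, adjusted p = 1.1e-04). Agrn, agrin, did not pass (256 ± 29.6 and 262 ± 11.4 CPM, adjusted p = 0.722), and Col18a1 fell from 40.9 ± 2.72 to 29.6 ± 1.67. Cspg4, a chondroitin sulfate proteoglycan that also stands in the pericyte list, rose from 171 ± 19.8 to 248 ± 4.58 CPM. Tgfbr3, betaglycan (0.29 ± 0.06 on the log2 scale), and the semaphorin and VEGF co-receptor gene Nrp1 (0.31 ± 0.07) rose, whereas Nrp2 (-0.81 ± 0.13) and Spock2 (-0.86 ± 0.23) fell.

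Genes whose products bind syndecan tails or act with them had 6 higher and 7 lower of 17 tested (median -0.12). Sdcbp, syntenin, which binds the C-terminus of syndecans, did not pass (148 ± 8.34 and 159 ± 7.50 CPM, adjusted p = 0.0755), though it did in 5 alternatives, among them library size scaling (adjusted p = 0.00209). Its relative Sdcbp2 fell from 2.22 ± 0.864 to 0.575 ± 0.246 CPM. Prkca, the kinase bound by syndecan-4, rose from 19.8 ± 2.16 to 36.1 ± 4.02 CPM, and Tiam1, a Rac activator bound by syndecan-1, from 1.42 ± 0.316 to 5.56 ± 0.855. The scaffold genes Cask (0.70 ± 0.07 on the log2 scale) and Synj2bp (0.49 ± 0.07) rose too. The integrin gene Itgb5 fell from 661 ± 39.3 to 338 ± 17.2 CPM, the membrane linker gene Ezr from 635 ± 62.5 to 351 ± 9.14, and Src from 85.8 ± 1.51 to 62.2 ± 4.97.

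**Figure D4:**
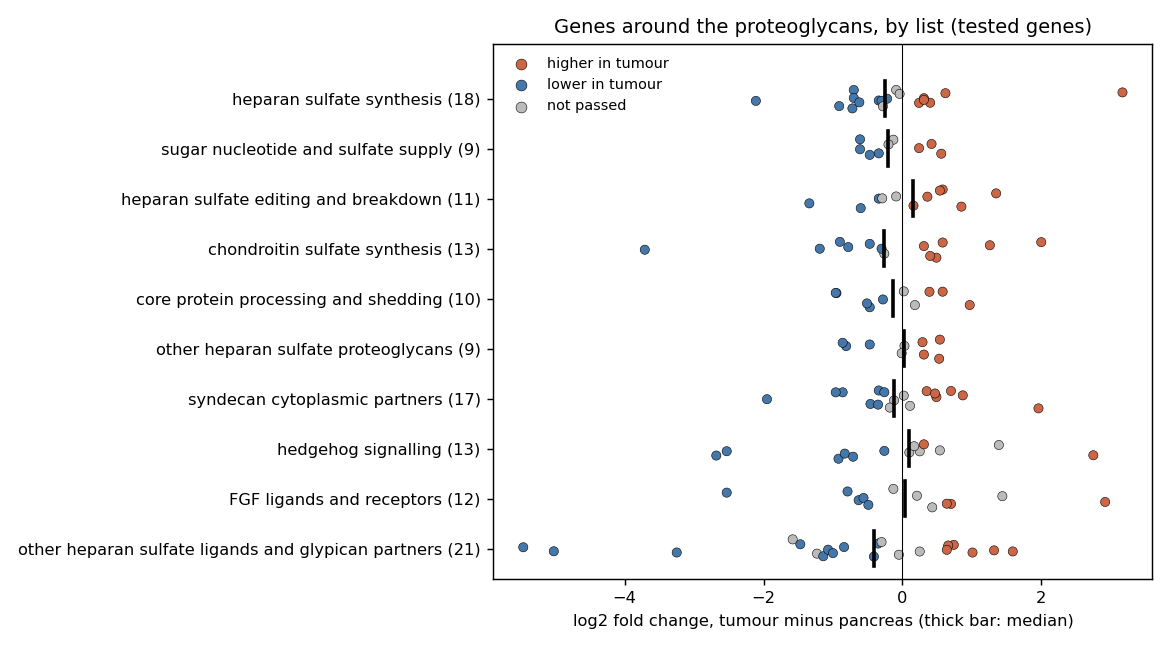
Log2 fold change of tumour minus pancreas (x axis) for the tested genes of each list around the proteoglycans. Points are genes, coloured by whether they were higher, lower or did not pass, and the bar is the median of the list. Medians run from -0.41 to 0.16, and each list holds genes of both directions.

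Hedgehog signalling, which glypican-3 is known to restrain in mouse, had its ligand genes at or near the floor. Shh was at 0 counts in every library, Dhh at 0.0825 ± 0.0795 and 0.0467 ± 0.0540 CPM, and Ihh at 0.362 ± 0.282 and 0.0543 ± 0.0899. Of the 18 genes of the list 13 were tested, 2 were higher and 6 lower (median 0.10). Ptch1, receptor and target gene, did not pass (20.7 ± 4.06 and 24.6 ± 0.368 CPM, adjusted p = 0.0696) but did in 6 of 18 alternatives, namely library size scaling (adjusted p = 0.016), the replicate block (adjusted p = 0.0482), DESeq2 (adjusted p = 0.048), limma-voom (adjusted p = 0.0478), and the fits without pancreas replicate 3 (adjusted p = 0.00867) or without pancreas replicates 3 and 4 (adjusted p = 0.0068). Gli1, another target gene and named after its values were seen, was low and did not pass either (0.358 ± 0.262 and 0.936 ± 0.230 CPM, adjusted p = 0.0634), and it passed in 6 alternatives, among them DESeq2 (adjusted p = 0.0348), limma-voom (adjusted p = 0.0231) and the fits without pancreas replicate 2 (adjusted p = 0.0188) or 4 (adjusted p = 0.0286). Disp2, a relative of the ligand release gene Disp1 (from 15.8 ± 0.632 to 2.74 ± 0.277 CPM), the co-receptor genes Cdon (from 36.3 ± 4.89 to 19.2 ± 1.66) and Boc (from 14.3 ± 1.71 to 8.05 ± 0.336) and the inhibitor gene Sufu (from 46.2 ± 1.42 to 28.4 ± 2.20) fell. Hhat, which acylates the ligands, was called higher (0.31 ± 0.10 on the log2 scale), and not without pancreas replicates 3 and 4 (adjusted p = 0.0639). The other gene called higher was Gli2, also low and named after its values were seen. It was at 0.0766 ± 0.0789 and 0.531 ± 0.302 CPM (2.75 ± 0.79 on the log2 scale, adjusted p = 0.00736), with 0 to 13 estimated counts in pancreas. The number higher ran from 1 to 6 over the alternatives, with 6 under library size scaling and 5 without pancreas replicates 3 and 4.

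FGF signalling, for which heparan sulfate is a co-receptor, had 3 genes higher and 5 lower of 12 tested (median 0.04). The receptor genes Fgfr1 (from 547 ± 98.8 to 370 ± 12.1 CPM) and Fgfr2 (from 83.5 ± 5.49 to 59.4 ± 6.06) and the ligand genes Fgf7 (from 177 ± 22.5 to 102 ± 9.06) and Fgf2 (from 23.8 ± 5.01 to 15.3 ± 1.23) fell. The adaptor gene Frs2 rose from 83.5 ± 9.92 to 130 ± 5.19 CPM and Fgfrl1, a receptor without a kinase, from 27.1 ± 2.58 to 44.0 ± 3.30.

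Further heparan sulfate ligands and glypican partners had 6 higher and 10 lower of 21 tested (median -0.41). Lrp1, an endocytic receptor that works with glypican-3, rose from 2116 ± 269 to 3543 ± 122 CPM, and the glypican-4 partner gene Gpr158 was too low to be tested. Cd81, a tetraspanin that binds glypican-3, fell from 669 ± 91.1 to 524 ± 11.9 CPM (-0.35 ± 0.08 on the log2 scale, adjusted p = 0.00112), and the growth factor gene Igf2 did not pass (0.494 ± 0.829 and 0.208 ± 0.197 CPM, adjusted p = 0.428). Ptprf, a receptor phosphatase related to the glypican receptor Ptprs, rose from 42.2 ± 12.6 to 127 ± 5.88 CPM, Tgfb1 from 64.5 ± 14.7 to 130 ± 5.46 and Hgf from 1.81 ± 1.03 to 4.50 ± 1.18. The ligand genes Bmp4 (from 7.23 ± 5.38 to 0.757 ± 0.111 CPM), Slit2 (from 16.8 ± 5.79 to 6.09 ± 0.464) and Hbegf (from 34.5 ± 2.86 to 15.6 ± 0.994) and the lipoprotein gene Apoe (from 44.7 ± 12.5 to 22.4 ± 1.44) fell.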

How the data were processed

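Per the labels' protocols, cells were dissociated, cleared of red and dead cells and sorted by antibody, and 2 µg of RNA went into NEBNext Ultra libraries, which do not mark strand. The deposited values are estimated counts per gene, in whole numbers, and columns were matched to samples by description. The submitters' processing notes name HISAT, HISAT2, HTSeq and mm10. The sources used here give no versions, strand setting or annotation. Values of exactly 4 counts are overrepresented, so a fragment seems to add several counts, and no counting interval is given.

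Of 55401 identifiers 55141 were in GENCODE mouse release M21, which gave positions and exon lengths. Genes passing edgeR's filterByExpr (minimum count 10, minimum total 15) were compared by the quasi-likelihood test of edgeR 4.0.16 (robust, TMM, R 4.3.3) with Benjamini-Hochberg adjustment. Alternatives were DESeq2 1.42.0, limma-voom (limma 3.58.1), other filters and scaling, counts divided by 4, a replicate block and left-out libraries. No 2 libraries of a group agreed within sampling noise (chi-square per degree of freedom at least 3.01 on counts already divided by 4, where sampling noise alone gives 1). As no label ties libraries to separate animals, p-values cover only the spread between samples, perhaps technical. On simulated counts 200 genes were changed, of which 192 were among the 17147 that passed the filter. The test found 55.4% of 1.5-fold, 64.6% of 2-fold and 87.1% of 4-fold changes and called 11 of 16955 unchanged genes. In the data a far larger part of the genes was called (65.8%), and the adjustment of p depends on that part. The simulated rates therefore do not give the sensitivity of the calls above.

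The members, lists and naming rule were chosen with earlier results of these data known. The rule names every member, up to 4 called genes per list and direction with a mean of at least 1 CPM, 14 genes fixed by name, the neighbours of Gpc3 to Gpc6, and the genes of most similar profile. One gene that the rule picks is not reported here.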

Additional observations from a re-analysis of the deposited data

Results flagged for a closer look

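In 3 of 180 groups of 5 libraries looked at, 1 library lay far from the others of its group by Dixon's criterion, which chance meets in about 1 of 20 groups, and 0 of the 3 concerned a glypican or syndecan gene. Tiam1 in pancreas replicate 2 was at 0.868 CPM, against 1.5 to 1.65 in the other 4 pancreas libraries. Itgb5 in tumour replicate 5 was at 308 CPM, against 341 to 352 in the other 4 tumour libraries. Igf2 in pancreas replicate 4 was at 1.96 CPM, against 0 to 0.257 in the other 4 pancreas libraries.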

How the results depend on the processing

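Gpc1, Gpc2, Sdc1, Sdc2 and Sdc4 kept direction and call under all 18 alternatives. Leaving out 1 library gave log2 fold changes of 0.84 to 0.94 for Gpc1, 1.52 to 2.08 for Gpc2, 0.32 to 0.49 for Sdc1, -0.48 to -0.38 for Sdc2, -0.61 to -0.56 for Sdc4, 5.40 to 5.98 for Gpc3, -0.48 to -0.28 for Gpc4, 0.17 to 0.46 for Gpc6 and -0.09 to 0.04 for Sdc3. Without pancreas replicates 3 and 4 Gpc3 was at 6.19, Gpc6 passed at 0.62 and Gpc4 no longer passed at -0.10. Gpc4 also missed the threshold with library size only (-0.28, adjusted p = 0.129), without the low-count filter (-0.39, adjusted p = 0.105), under limma-voom (-0.35, adjusted p = 0.0717) and in 7 of the 10 fits that leave out 1 library. Sdc3 turned positive with library size only (0.08) and without pancreas replicate 1 (0.03), tumour replicate 4 (0.04) or tumour replicate 5 (0.03). The syndecan share in tumour was 80.1% with the longest transcript. The cause of these shifts was not tested. The genes called higher numbered 5689 with all libraries and 5445 to 5749 with 1 left out, and those called lower 5853 and 5628 to 5848. With library size only they were 6635 and 4986. Replicate numbers shared by the groups did not pair the libraries (correlations of same-numbered deviations -0.00228, 0.0394, -0.0193, 0.00403, -0.0122, and 1 pancreas library correlated best with its own number). With the replicate block 5587 genes were higher and 5598 lower, and it ended or added no call among the members (Gpc4 -0.35, adjusted p = 0.0155). Low counts limit Gpc2 and Gpc3 in pancreas and Gpc5 throughout.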
